A study of Mus musculus with 12 samples.

Results

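The 46 genes described here encode the machinery through which proteins enter the endoplasmic reticulum (ER), fold there, are checked and leave for the Golgi, together with the regulators of the ER stress response. They were listed by symbol for what their products do, with no threshold on measured values, but by a choice made with earlier results of these data known. The count table lists 53599 genes; all 46 were found in it and all 46 were among the 14798 genes that passed the filter on low counts. By role they fall into 7 sensors and transcription factors of the unfolded protein response, 10 ER chaperones and co-chaperones, 4 protein disulfide isomerases, 4 genes of ER-associated degradation, 7 subunits of the Sec61 channel and its translocon-associated partner complex (TRAP), 4 signal peptidase subunits, 5 genes of ER export and 5 targets of the transcription factor ATF4.

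Bulk RNA-seq libraries were made from 12 cultures of mouse liver cells, in 4 groups of 3. The hepCLiP cultures descend from hepatocytes and the bilCLiP cultures from the biliary epithelium, and each kind was grown in 2D or in 3D. In 2D, a collagen coat and a small hepatocyte medium were used, with fetal bovine serum at 10% and the inhibitors Y-27632, A83-01 and CHIR99021. For 3D, they formed spheroids over 3 days in microwells without serum followed by 6 to 8 days of suspension culture in which oncostatin M was added at 10 ng/ml, the same inhibitors being present throughout. Culture form, serum and oncostatin M therefore changed together, and their effects cannot be told apart. All bilCLiP libraries and replicate 2 of each hepCLiP group carried the RosaYFP reporter, and replicates 1 and 3 of each hepCLiP group carried RosaConfetti. The reporters set replicate 2 of hepCLiP apart from replicates 1 and 3, but nothing in the labels ties each replicate to an animal of its own. The p-values thus reflect the spread among these libraries, whose biological and technical parts the labels do not separate. In 4 libraries the treatment label named the other culture from that in the sample name (hepCLiP 2D replicate 3 and all 3 bilCLiP 3D libraries), and the sample name was followed.

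Secreted and membrane proteins are threaded through the Sec61 channel as they are made, lose their signal peptide to signal peptidase, fold with the help of BiP, the lectin chaperones and disulfide isomerases, and leave in COPII vesicles; chains that fail to fold are returned to the cytosol for degradation. When unfolded chains accumulate, 3 sensors respond: IRE1, which splices the Xbp1 message; ATF6, which is cut at the Golgi to release a transcription factor; and PERK, which slows translation and favours that of Atf4. The hepatocyte is a professional secretory cell that makes most plasma proteins, and it also carries CREB3L3 (CREBH), a relative of ATF6 at the ER membrane.

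The libraries held 16142365 to 21253382 counts. In hepCLiP the 46 genes together took 1.08% ± 0.0493 (SD, n = 3) of all counts in 2D and 1.49% ± 0.0764 in 3D; the bilCLiP shares were 1.09% ± 0.0611 and 1.51% ± 0.163. A list of 20 plasma protein genes, whose products are clients of this machinery, went from 1.38% ± 0.142 to 23.1% ± 2.95 of all counts in hepCLiP and from 1.16% ± 0.446 to 19.4% ± 3.62 in bilCLiP. The summed level of 6 hepatocyte markers, in CPM (counts scaled to library size), was 341 to 1610 in hepCLiP 2D, 40800 to 51500 in hepCLiP 3D, 180 to 1040 in bilCLiP 2D and 17400 to 43200 in bilCLiP 3D. The sum of 6 biliary markers was 3190 to 5940, 11300 to 15700, 5480 to 10400 and 13600 to 33300 CPM in the same order, although Krt19 among them had means of 860 and 694 CPM in hepCLiP and bilCLiP 2D and 8.74 and 5.32 in 3D. Krt19 in hepCLiP 2D replicate 3, whose labels disagree, was at 1005 CPM, beside 476 and 1100 in replicates 1 and 2. The bilCLiP 3D libraries, whose labels also disagree, had 1.25, 2.64 and 12.1 CPM. Those of hepCLiP 3D, whose labels agree, had 1.17, 18.7 and 6.32. Alb, a hepatocyte marker, was at 691 CPM in hepCLiP 2D replicate 3. In bilCLiP 3D it was at 6026, 19970 and 22890 CPM, and in hepCLiP 3D at 26620, 21500 and 23140. Among cell types with heavy secretory loads, 4 plasma cell markers summed to at most 0.344 CPM, with Igkc at 0 in every library. The sum of 6 mucous epithelial markers was at most 3.23 CPM in 2D, 1.83 to 172 in hepCLiP 3D and 184 to 941 in bilCLiP 3D, in the highest libraries nearly all of it Tff3, with Agr2 at 0 in 3 of the 4 groups. The sum of 3 mesothelial markers was 333 to 989 CPM in 2D and 5.57 to 27.8 in 3D, nearly all of it Msln, with Upk3b and Wt1 each at most 0.365 CPM in any library, the sum of 8 fibroblast and stellate markers was 4.59 to 284 in hepCLiP 3D and at most 19.5 in the other groups, and endothelial and macrophage markers stayed at or below 19.8. These marker levels moved with the culture, and their part in the results below was not tested. In bulk RNA, fewer cells of a type and less RNA per cell cannot be told apart.

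One promoter element recurs in part of this gene set, and its sequence is shown before the values. The genes were listed for roles in the ER and its stress response, ATF4 targets included. The motif shares given below therefore describe the list and are not a test. The ER stress response element, spelled here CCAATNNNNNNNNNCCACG and searched on both strands, is the site at which NF-Y and ATF6 bind together in textbook accounts. RefSeq promoter windows (250 bases before to 50 after the gene start, mouse build GRCm38.p6) were found for 37 of the 46 genes. The element was present in a window of 8 of these 37 genes (21.6%) and of 37 of all 27025 genes with a window (0.137%). Its short part CCACG alone, which also lies within it, was in a window of 75.7% of these members and of 35.5% of all genes. The 8 stretches follow, 5′ to 3′ on the gene's own strand, with the fixed letters of the element in capitals; where capitals read CGTGG first, the match is on the opposite strand.
Hspa5: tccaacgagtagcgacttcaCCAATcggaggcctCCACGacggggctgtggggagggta
Hsp90b1: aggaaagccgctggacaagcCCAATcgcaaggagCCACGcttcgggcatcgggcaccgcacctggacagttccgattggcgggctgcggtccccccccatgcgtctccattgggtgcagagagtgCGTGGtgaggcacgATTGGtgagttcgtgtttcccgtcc
Dnajc3: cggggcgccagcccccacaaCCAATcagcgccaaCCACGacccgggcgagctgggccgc
Creld2: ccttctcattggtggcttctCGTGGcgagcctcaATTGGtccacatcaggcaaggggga
Calr: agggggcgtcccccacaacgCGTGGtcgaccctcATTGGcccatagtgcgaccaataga
Canx: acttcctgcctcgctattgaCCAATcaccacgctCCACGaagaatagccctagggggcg
Pdia6: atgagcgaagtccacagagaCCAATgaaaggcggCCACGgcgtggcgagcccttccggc
Derl3: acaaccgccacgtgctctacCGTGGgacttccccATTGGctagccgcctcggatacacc

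In that build the stretches lie at chr2:34772005-34772063 on the plus strand for Hspa5, chr10:86705513-86705676 on the minus strand for Hsp90b1, chr14:118937807-118937865 (plus) for Dnajc3, chr15:88819500-88819558 (plus) for Creld2, chr8:84847055-84847113 (minus) for Calr, chr11:50325780-50325838 (minus) for Canx, chr12:17266471-17266529 (plus) for Pdia6 and chr10:75893222-75893280 (plus) for Derl3, all upstream of the gene start. Hsp90b1 held 2 matches, 1 on each strand. Of the 22 genes with a window that were higher in 3D in both origins, 7 held the element, and of the other 15 genes 1 did, Canx. A match is a description of these letters and not a measured binding site.

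A second element, the amino acid response element read by ATF4 and its partners, was spelled TGATGNAA and searched in the same way. It was present in a window of 5 of the 37 genes (13.5%) against 4.51% of all genes: Atf3, Herpud1, Asns, Chac1 and, after the gene start, Trib3. Shown are 3 genes of the ATF4 branch whose values differ from one another below, with the fixed letters again in capitals.
Atf3: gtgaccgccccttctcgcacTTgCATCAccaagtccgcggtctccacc
Asns: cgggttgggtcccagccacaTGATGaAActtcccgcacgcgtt
Chac1: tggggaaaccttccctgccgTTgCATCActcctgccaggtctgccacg

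These lie at chr1:191183416-191183463 (minus) for Atf3, chr6:7693210-7693252 (minus) for Asns and chr2:119351029-119351076 (plus) for Chac1. A core of the UPR element, TGACGTG, was in the windows of Hspa5 and Sec24d, 5.41% of the 37 genes, against 2.22% of all genes.

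**Figure D1:**
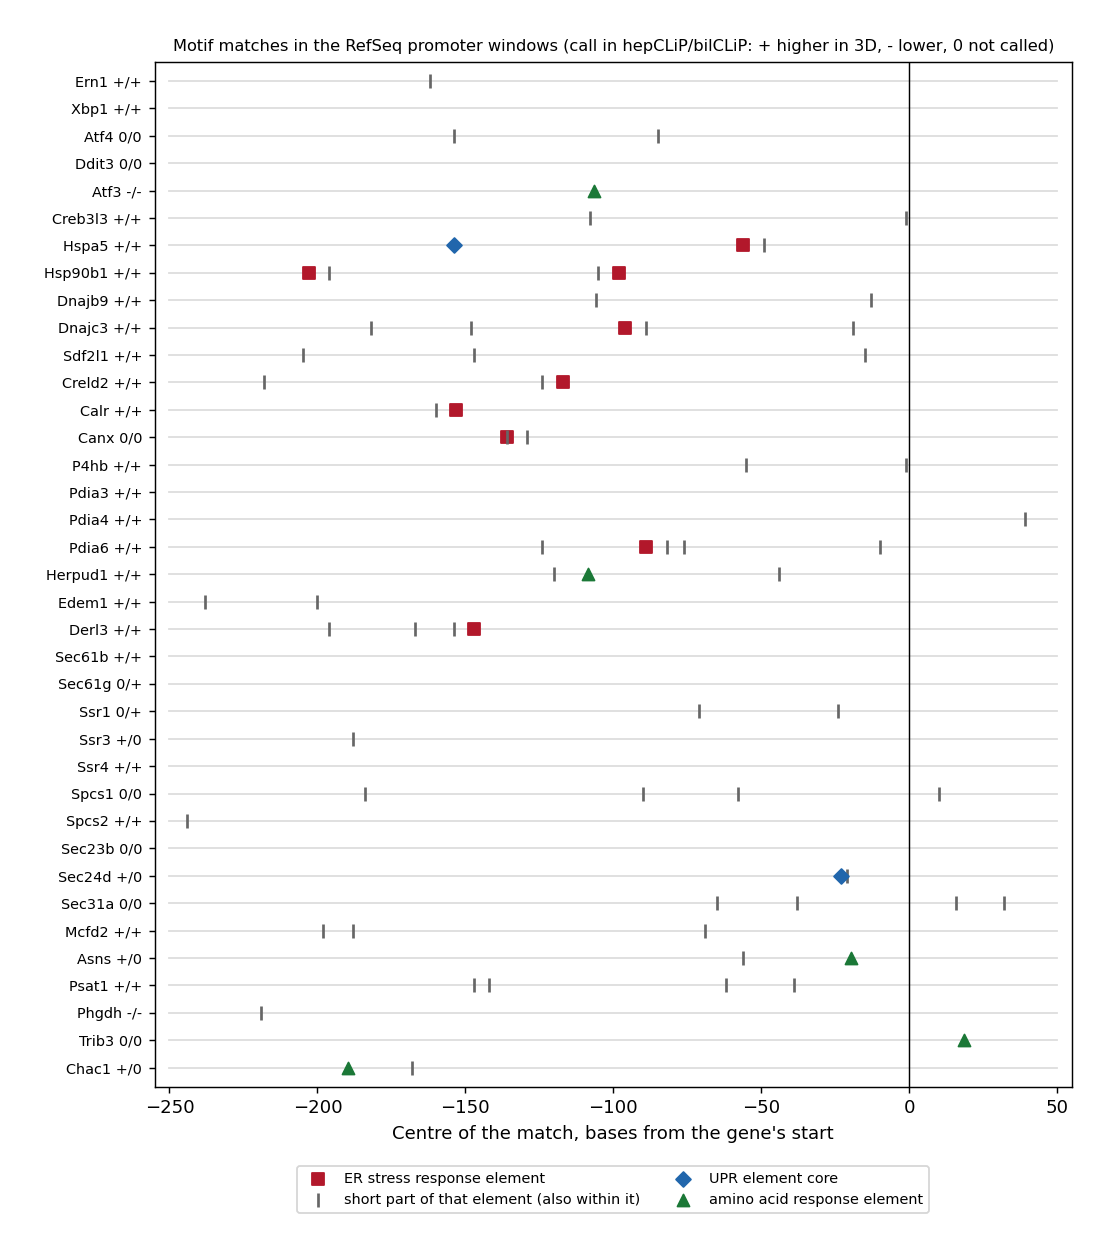
Positions of the motif matches in the promoter windows of the 37 members that have one; the horizontal axis is the distance in bases from the gene start (250 before to 50 after), each row is a gene, and the signs after the name give its call in 3D against 2D in hepCLiP and bilCLiP (+ higher, − lower, 0 not called). The ER stress response element appears in 8 rows, 7 of them genes called higher in both origins.

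In 3D, most of the secretory machinery was higher than in 2D, in cells of both origins. A gene is called here when its adjusted p (edgeR's quasi-likelihood test, Benjamini-Hochberg over 14798 genes) was under 0.05, and only called genes are said to have risen or fallen. In hepCLiP, 34 of the 46 genes rose in 3D, 2 fell and 10 were not called, where 16.9% of all genes tested were called higher and 17.9% lower. In bilCLiP, 33 rose, 2 fell and 11 were not called, against 15.8% of all genes called higher and 14.5% lower. The median log2 fold change of the 46 was 1.15 in hepCLiP, beside −0.06 over all genes, and 0.92 in bilCLiP, beside 0.00. A called rise of at least 2-fold was seen in 26 genes in hepCLiP (56.5%, beside 11% of all genes) and in 21 in bilCLiP (45.7%, beside 10.5%). The 3 libraries of 3D and the 3 of 2D did not overlap for 40 of the 46 genes in hepCLiP, where this held for 46.9% of all genes, and for 34 in bilCLiP, where it held for 49.1%.

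The counts depend on the scaling. Scaling each library to its total count alone, without the trimmed-mean factor, lowers every log2 fold change by 0.57 in hepCLiP and 0.47 in bilCLiP. On that scale 22 members were higher and 6 lower in hepCLiP, where 8.73% of all genes tested were called higher and 44.8% lower. In bilCLiP 18 members were higher and 5 lower, beside 9.1% and 36.6% of all genes. The share of higher among all genes called went from 48.6% to 16.3% in hepCLiP and from 52.1% to 19.9% in bilCLiP. The members' medians were then 0.58 and 0.44, beside −0.63 and −0.47 over all genes. The 12 rises no longer called in hepCLiP were those of Calr, P4hb, Pdia3, Derl1, Sec61a1, Sec61b, Ssr3, Spcs2, Spcs3, Sec24d, Asns and Chac1. The 15 in bilCLiP were those of Ern1, Atf6, Hyou1, Pdia3, Edem1, Derl1, Derl3, Sec61a1, Sec61b, Sec61g, Ssr1, Ssr2, Sec11c, Spcs2 and Spcs3.

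The origins shared most of their calls. Higher in both were 30 genes, 88.2% of those that rose in hepCLiP and 90.9% of those that rose in bilCLiP, and the 2 that fell, Atf3 and Phgdh, were the same. The same overlap was not counted over all genes, so it is not shown to be particular to the members. Called in hepCLiP but not in bilCLiP were Ssr3, Sec24d, Asns and Chac1, and called in bilCLiP but not in hepCLiP were Sec61g, Ssr1 and Ssr2. Neither origin gave a call for Atf4, Ddit3, Canx, Spcs1, Sec23b, Sec31a and Trib3. The fit behind these calls did not pair same-numbered cultures. When they were paired, Ssr3, Sec24d and Asns also passed in bilCLiP, and Sec61g and Ssr1 also passed in hepCLiP. Spcs1 then passed in both origins, Trib3 in hepCLiP and Ddit3, as a fall, in bilCLiP. When each of the 12 libraries was left out in turn, 30 of the 34 rises in hepCLiP were called every time (the others being Derl1, Sec24d, Asns and Chac1) and 26 of the 33 in bilCLiP (the others being Ern1, Atf6, Hyou1, Derl1, Derl3, Ssr1 and Spcs3); both falls were called every time. With hepCLiP 2D replicate 3 left out, the library whose labels disagree, 32 members were higher and 2 lower in hepCLiP.

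**Figure D2:**
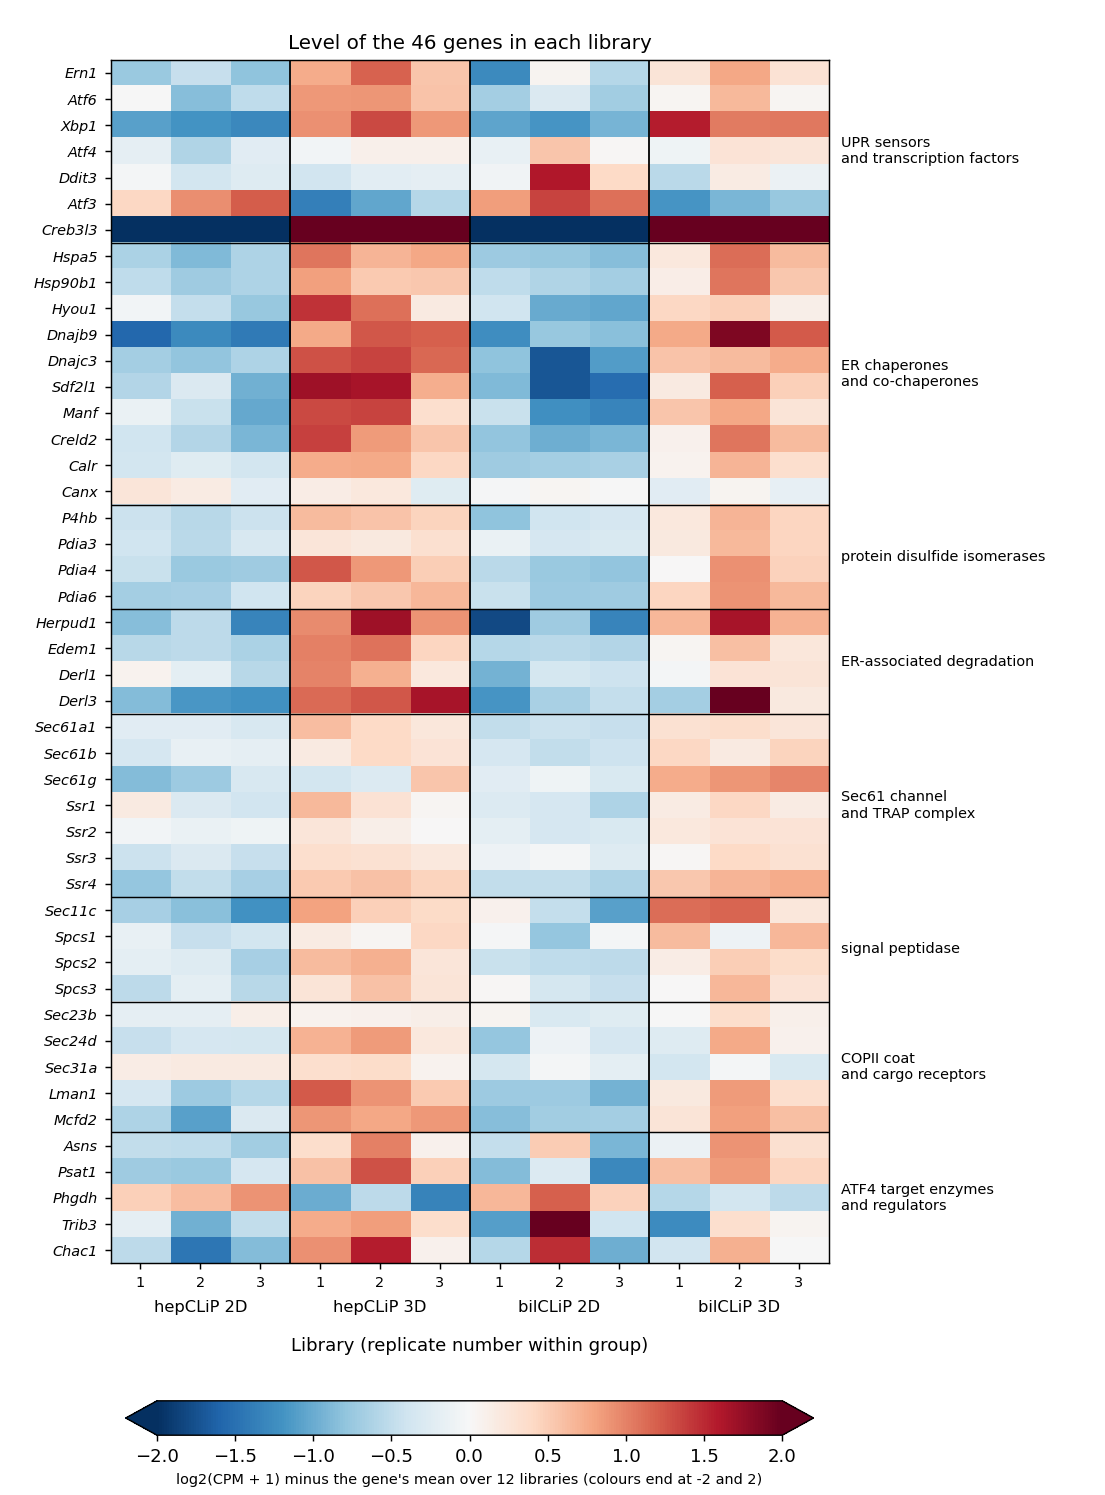
Level of each of the 46 genes in each of the 12 libraries, as log2(CPM + 1) minus the gene's mean over all libraries, with colours ending at −2 and 2; rows are grouped by role and columns by culture group. Most rows change sign between the 2D and the 3D columns, and Atf3 and Phgdh run the other way.

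**Figure D3:**
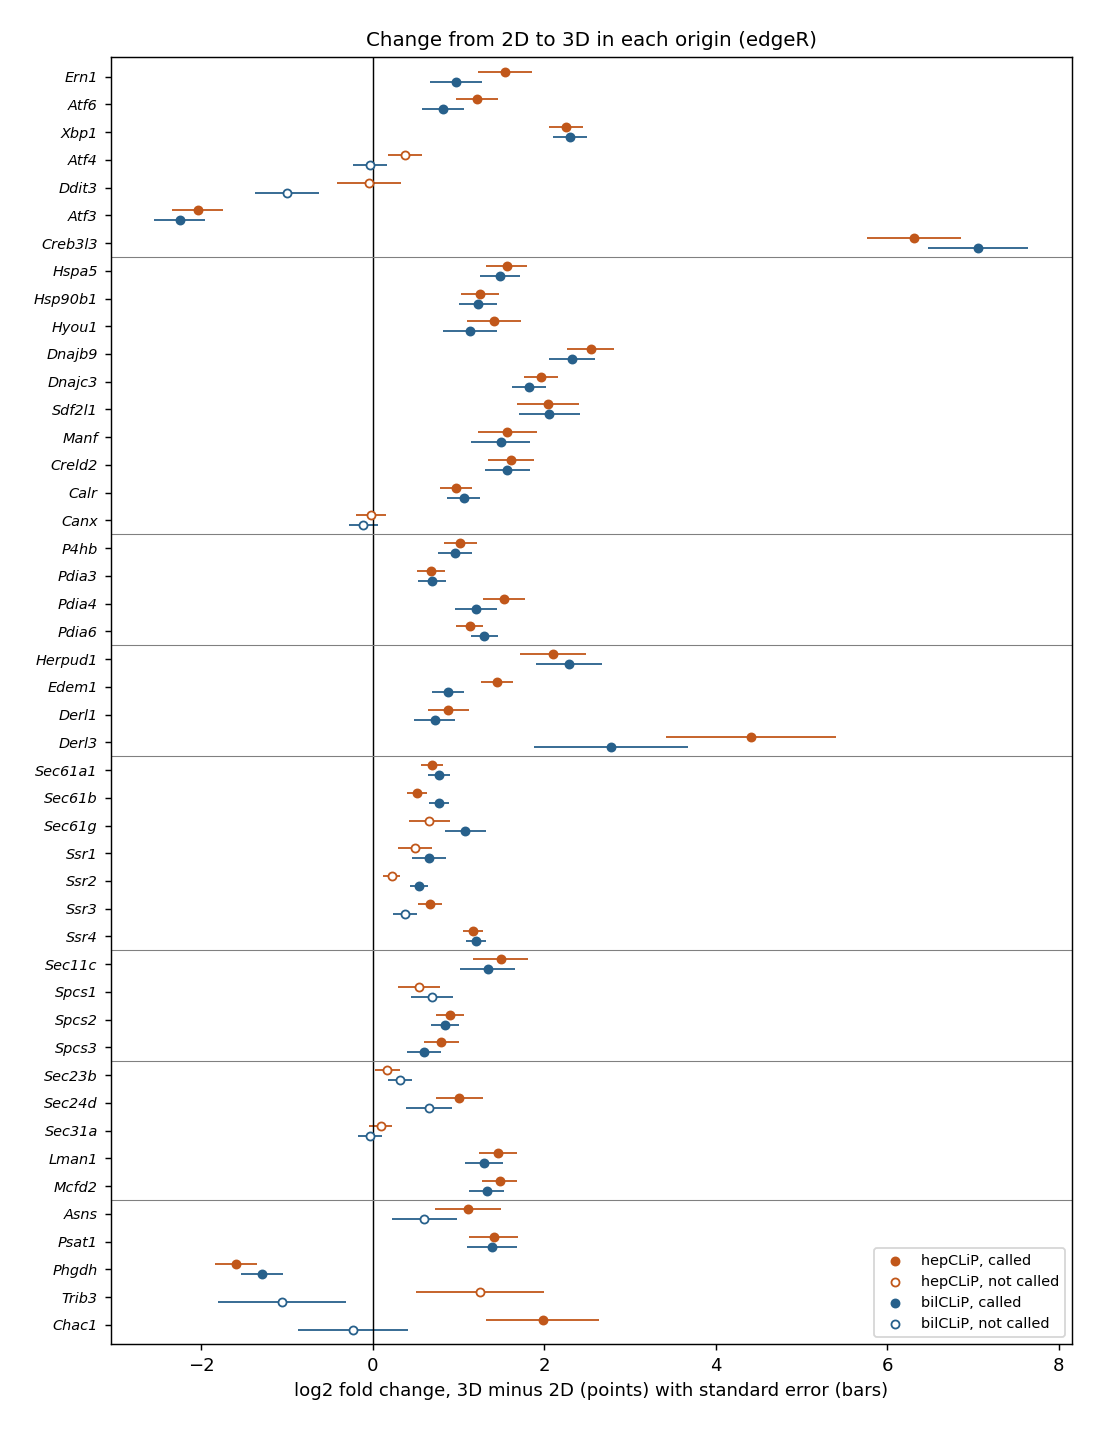
Log2 fold change of 3D over 2D for each gene (points) with its standard error (bars), hepCLiP in orange and bilCLiP in blue, filled where called. Creb3l3 lies farthest to the right in both origins (6.31 and 7.06), and Atf3 (−2.04 and −2.25) and Phgdh (−1.60 and −1.29) are the filled points left of 0.

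Among the sensors and transcription factors, 4 of 7 rose and 1 fell in each origin. Xbp1, the factor made active by IRE1's splicing, was at 167, 155 and 145 CPM in hepCLiP 2D and 671, 891 and 651 in hepCLiP 3D. The bilCLiP levels were 171, 157 and 186 CPM in 2D and 1062, 736 and 739 in 3D. Every 3D library was above every 2D library, and the rise was 4.74-fold in hepCLiP (log2 2.25 ± 0.195 SE, adjusted p = 5.2e-05) and 4.94-fold in bilCLiP (log2 2.30 ± 0.195, adjusted p = 4.4e-05). Gene counts do not separate the spliced from the unspliced message.

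Ern1, which encodes IRE1, was at 29.3, 36.1 and 28.1 CPM in hepCLiP 2D and 84.3, 114 and 73.6 in 3D, a 2.91-fold rise (log2 1.54 ± 0.311, adjusted p = 0.00355). In bilCLiP it was at 20.1, 51.8 and 33.4 CPM in 2D and 59.5, 85.6 and 60.9 in 3D, a 1.96-fold rise (log2 0.97 ± 0.307, adjusted p = 0.0351). The bilCLiP groups did not overlap, but the spread in 2D was wide and the call ended when any of 4 bilCLiP libraries was left out: replicate 1 of 2D gave 0.69 (adjusted p = 0.0851), replicate 3 of 2D 0.93 (0.0948), replicate 2 of 3D 0.78 (0.131) and replicate 3 of 3D 1.05 (0.0569). Atf6 was at 85.9, 47.4 and 60.4 CPM in hepCLiP 2D and 159.6, 160.0 and 129 in 3D (log2 1.21 ± 0.244, adjusted p = 0.00342). In bilCLiP Atf6 was at 54.0, 71.1 and 53.0 CPM in 2D and 88.7, 137 and 89.5 in 3D (log2 0.82 ± 0.242, adjusted p = 0.0256). Leaving out any of 3 bilCLiP libraries ended that call: 2D replicate 1 gave 0.76 (adjusted p = 0.0794), 2D replicate 3 gave 0.75 (0.0846) and 3D replicate 2 gave 0.59 (0.112).

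Creb3l3 showed the widest change of the 46 genes in both origins. It was at 3.33, 1.09 and 1.499 CPM in hepCLiP 2D and 179, 146 and 145 in 3D, a 79.2-fold rise (log2 6.31 ± 0.552, adjusted p = 5.69e-05). In bilCLiP it was at 0.258, 0.855 and 1.60 CPM in 2D and 98.3, 157 and 105 in 3D, a 133-fold rise (log2 7.06 ± 0.581, adjusted p = 3.88e-05). The level in 2D was a few CPM at most, so the size of the fold is less certain than its direction. Of 7 genes listed as liver targets of CREB3L3, 4 rose and none fell in each origin, beside 16.9% (hepCLiP) and 15.8% (bilCLiP) of all genes called higher. In hepCLiP 2 of the 7 had negative values, down to log2 −2.37, without a call. Fgf21, which is also on the amino acid response list below, was among the 4 that rose. Crp, an acute phase protein and another of these 4, went from 5.0 ± 4.27 to 717 ± 193 CPM in hepCLiP and from 7.21 ± 5.53 to 708 ± 69.3 in bilCLiP. Apcs, the serum amyloid P component, went from 3.99 ± 0.233 to 525.5 ± 33.9 CPM in hepCLiP and from 2.37 ± 1.71 to 386 ± 315 in bilCLiP. Whether CREB3L3 moved any of these genes was not tested.

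Atf4 and Ddit3, factors downstream of PERK, were not called in either origin. Atf4 was at 212, 158 and 206 CPM in hepCLiP 2D and 233, 259 and 258 in 3D, which did not overlap but did not pass (log2 0.38, 95% interval −0.06 to 0.82, adjusted p = 0.159). In bilCLiP Atf4 was at 217, 357 and 246 CPM in 2D and 227, 291 and 285 in 3D, with overlap (log2 −0.03, interval −0.46 to 0.41, adjusted p = 0.93). ATF4 is set largely by translation, which RNA counts do not show. Ddit3, which encodes the pro-apoptotic factor CHOP, was at 18.8, 14.8 and 16.1 CPM in hepCLiP 2D and 14.7, 16.6 and 17.0 in 3D (log2 −0.04, interval −0.86 to 0.78, adjusted p = 0.944). In bilCLiP Ddit3 was at 18.4, 60.8 and 25.97 CPM in 2D and 13.0, 21.8 and 17.8 in 3D (log2 −1.0, interval −1.82 to −0.18, adjusted p = 0.0653). With same-numbered cultures paired, the bilCLiP difference passed (log2 −0.85, adjusted p = 0.0168), as it did without bilCLiP 2D replicate 1 (−1.31, adjusted p = 0.0167). Without bilCLiP 2D replicate 2, the library at 60.8 CPM, the value was −0.34 (adjusted p = 0.349).

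Atf3, an immediate stress-response factor, fell. It was at 14.6, 21.3 and 26.1 CPM in hepCLiP 2D and 3.52, 4.68 and 6.88 in 3D, 4.11-fold lower (log2 −2.04 ± 0.298, adjusted p = 0.000644). In bilCLiP it was at 19.8, 29.0 and 24.0 CPM in 2D and 4.15, 5.22 and 5.92 in 3D, 4.75-fold lower (log2 −2.25 ± 0.299, adjusted p = 0.000457). The groups did not overlap in either origin.

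**Figure D4:**
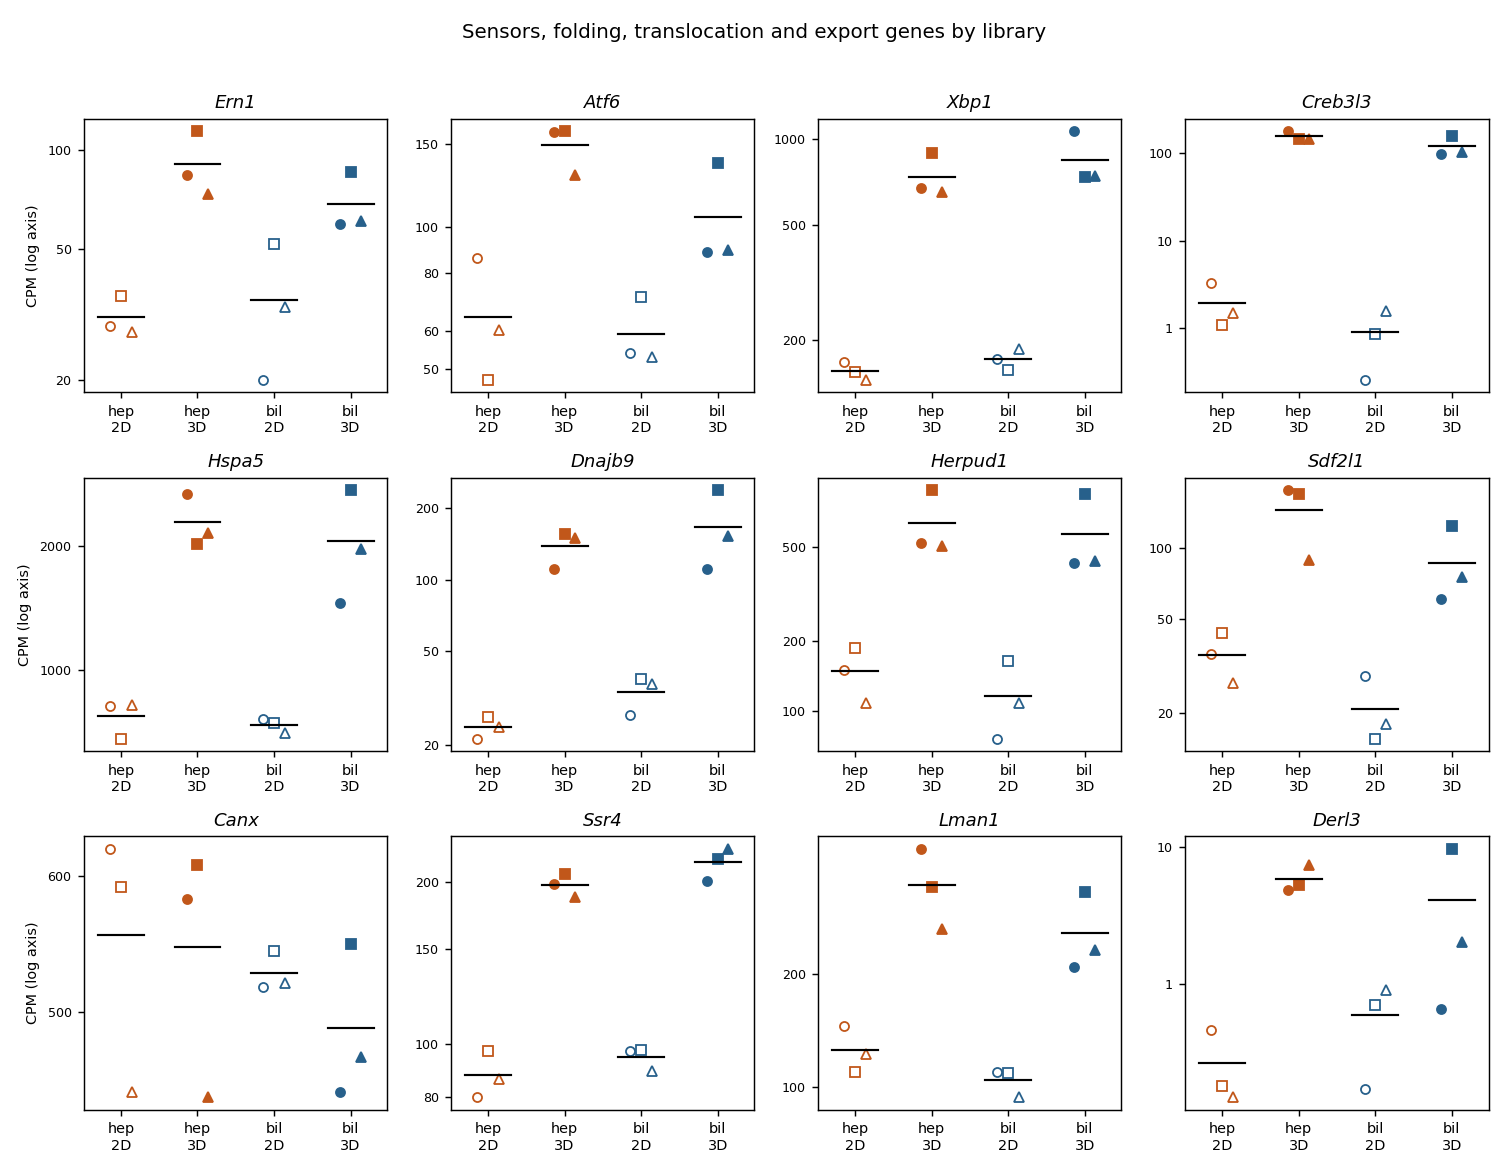
CPM (log axis) of 12 members in each library, by group; open symbols are 2D, filled symbols 3D, circles, squares and triangles are replicates 1, 2 and 3, and black lines are group means. Xbp1, Creb3l3, Hspa5, Dnajb9, Herpud1, Sdf2l1, Ssr4 and Lman1 do not overlap between 2D and 3D in either origin, Canx overlaps in both, and Derl3 overlaps in bilCLiP, where 1 library at 9.64 CPM stands above the others at 0.659 and 2.03.

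Of the 10 ER chaperones and co-chaperones, 9 rose in both origins, with a group median log2 fold change of 1.57 in hepCLiP and 1.49 in bilCLiP. Hspa5, which encodes BiP, the main ER chaperone and keeper of the 3 stress sensors, was at 816, 681 and 820.1 CPM in hepCLiP 2D and 2666, 2020 and 2152 in 3D. In bilCLiP it was at 759.9, 744 and 701 CPM in 2D and 1457, 2734 and 1966 in 3D. Each 3D library was well above each 2D library, and Hspa5 rose 2.95-fold in hepCLiP (log2 1.56 ± 0.237, adjusted p = 0.00076) and 2.79-fold in bilCLiP (log2 1.48 ± 0.236, adjusted p = 0.00119). Hsp90b1 (GRP94), an ER member of the HSP90 family, rose 2.37-fold and 2.34-fold. Hyou1, a nucleotide exchange factor for BiP, rose 2.65-fold in hepCLiP and 2.19-fold in bilCLiP, but its bilCLiP call did not survive the omission of 2D replicate 2 (log2 1.03, adjusted p = 0.0711), 2D replicate 3 (1.02, 0.0712) or 3D replicate 2 (1.06, 0.0631).

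Dnajb9, Sdf2l1 and Dnajc3 had the largest fold changes of the 10 in both origins, with no test made between genes. Dnajb9 (ERdj4), which brings BiP to IRE1 and to misfolded chains, was at 21.3, 26.4 and 23.8 CPM in hepCLiP 2D and 111, 155 and 150.2 in 3D, a 5.83-fold rise (log2 2.54 ± 0.273, adjusted p = 0.000139). The bilCLiP libraries had 26.8, 38.1 and 36.0 CPM in 2D and 111, 239 and 153 in 3D, a 4.98-fold rise (log2 2.32 ± 0.27, adjusted p = 0.000211). Dnajc3 (P58IPK), a co-chaperone that also restrains PERK, rose 3.90-fold in hepCLiP, from 110.0 ± 6.44 to 429 ± 30.3 CPM (SD, n = 3), and 3.54-fold in bilCLiP, from 79.4 ± 24.2 to 281 ± 18.2. Sdf2l1, a partner of the ER J-proteins, was at 35.3, 43.5 and 26.7 CPM in hepCLiP 2D and 175, 169 and 88.8 in 3D (4.10-fold, adjusted p = 0.00173). In bilCLiP Sdf2l1 was at 28.6, 15.6 and 17.9 CPM in 2D and 60.7, 124 and 74.8 in 3D (4.18-fold, adjusted p = 0.00195). No 3D library of Sdf2l1 fell within the 2D range in either origin. Manf, a secreted ER-resident survival factor, rose 2.98-fold and 2.82-fold, and Creld2, a gene of the same stress response, 3.05-fold and 2.98-fold.

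Of the 2 lectin chaperones, which hold glycoproteins while they fold, Calr rose in both origins and Canx was called in neither. Calr (calreticulin, soluble) was at 921, 1002 and 913 CPM in hepCLiP 2D and 1983, 2003 and 1575 in 3D (log2 0.97 ± 0.19, adjusted p = 0.00297), and it rose 2.09-fold in bilCLiP (adjusted p = 0.00219). Canx (calnexin, membrane-bound) was at 623, 592 and 449 CPM in hepCLiP 2D and 582, 609 and 446 in 3D. In bilCLiP Canx was at 517, 542 and 519.8 CPM in 2D and 449, 548 and 471 in 3D. Its groups overlapped in both origins, with log2 fold changes of −0.02 (interval −0.41 to 0.36, adjusted p = 0.933) and −0.11 (interval −0.49 to 0.28, adjusted p = 0.685). Relative to library totals alone Canx was lower in both, by log2 −0.60 (adjusted p = 0.00918) and −0.59 (adjusted p = 0.0131). Canx is also the one gene outside the shared rises whose window holds the ER stress response element printed above.

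All 4 protein disulfide isomerases, which make and reshuffle disulfide bonds, rose in both origins, with a median log2 fold change of 1.08 in each. Pdia6 was at 193, 195 and 236 CPM in hepCLiP 2D and 424, 450.4 and 492 in 3D (2.19-fold, adjusted p = 0.000546). In bilCLiP Pdia6 was at 228, 186 and 189 CPM in 2D and 420.3, 578 and 489 in 3D (2.47-fold, adjusted p = 0.000284). Pdia4 rose 2.88-fold and 2.30-fold, and P4hb, which also serves as a subunit of prolyl hydroxylase, 2.03-fold and 1.94-fold. Pdia3, the isomerase that works with the lectin chaperones, rose the least of the 4, by 1.60-fold and 1.61-fold. On library totals alone Pdia3 was not called in either origin (log2 0.11 and 0.20, adjusted p = 0.594 and 0.329), and P4hb was not called in hepCLiP (0.45, adjusted p = 0.0515).

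The 4 genes of ER-associated degradation also rose in both origins. Herpud1, which organises the membrane complex that exports misfolded proteins, was at 150.1, 187 and 108 CPM in hepCLiP 2D and 523, 878 and 504 in 3D, a 4.28-fold rise (log2 2.10 ± 0.382, adjusted p = 0.00205). For bilCLiP the levels were 76.4, 164 and 108 CPM in 2D and 427, 846 and 438 in 3D, a 4.91-fold rise (log2 2.29 ± 0.385, adjusted p = 0.00156). Replicate 2 was the highest of its group in all 4 groups, and no 3D library fell within the 2D range. Edem1, a lectin that marks misfolded glycoproteins, rose 2.74-fold in hepCLiP, from 85.2 ± 3.58 to 233 ± 53.5 CPM, and 1.84-fold in bilCLiP, from 85.7 ± 1.43 to 158 ± 32.1.

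The derlins, membrane proteins of the export channel, gave less stable values. Derl1 rose 1.84-fold in hepCLiP (adjusted p = 0.0158) and 1.65-fold in bilCLiP (adjusted p = 0.0421). The hepCLiP call was lost without hepCLiP 2D replicate 3 (log2 0.73, adjusted p = 0.0621). The bilCLiP call was lost without any of 7 libraries, among them bilCLiP 2D replicate 1 (0.55, adjusted p = 0.138). Derl3, the derlin of secretory cells, was at 0.463, 0.182 and 0.150 CPM in hepCLiP 2D and 4.84, 5.25 and 7.30 in 3D (log2 4.41 ± 0.986, adjusted p = 0.00601). In bilCLiP Derl3 was at 0.172, 0.700 and 0.911 CPM in 2D and 0.659, 9.64 and 2.03 in 3D (log2 2.78 ± 0.9, adjusted p = 0.0383). The bilCLiP groups overlapped, and without bilCLiP 3D replicate 2 the value was 1.18 with an adjusted p of 0.282. The bilCLiP call was also lost without any single bilCLiP 2D library (adjusted p = 0.0608 to 0.107) or hepCLiP 3D library (0.0502 to 0.0516). The 3 hepCLiP 2D libraries held 17 Derl3 counts between them, so its fold is imprecise.

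At the entry to the ER, of the 7 Sec61 and TRAP genes, 4 rose in hepCLiP and 6 in bilCLiP. Sec61a1, the channel itself, was at 249, 250.2 and 233 CPM in hepCLiP 2D and 450.1, 386 and 343 in 3D (1.61-fold, adjusted p = 0.00205), and it rose 1.71-fold in bilCLiP (adjusted p = 0.00131). On library totals alone it was called in neither (log2 0.11, adjusted p = 0.468, and 0.30, adjusted p = 0.0671). Sec61b rose 1.43-fold and 1.71-fold. Sec61g was at 50, 54.96 and 73.5 CPM in hepCLiP 2D and 70.5, 75.8 and 135 in 3D, with overlapping groups (log2 0.66, interval 0.13 to 1.18, adjusted p = 0.0524). It passed with same-numbered cultures paired (0.61, adjusted p = 0.00537) and without any 1 of 4 libraries, such as hepCLiP 2D replicate 3 (0.84, adjusted p = 0.0365). The bilCLiP levels of Sec61g were 78.4, 86.4 and 73.9 CPM in 2D and 153, 171 and 182 in 3D, and the gene rose 2.12-fold (adjusted p = 0.00644).

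The 4 TRAP subunits, which help some signal peptides to open the channel, were uneven. Ssr4 was at 79.8, 97.3 and 86.2 CPM in hepCLiP 2D and 198, 207 and 187 in 3D (2.25-fold, log2 1.17 ± 0.116, adjusted p = 0.000101). In bilCLiP Ssr4 was at 97.3, 97.4 and 89.3 CPM in 2D and 201, 220.3 and 230.1 in 3D (2.29-fold, log2 1.2 ± 0.116, adjusted p = 9e-05). Its replicates lay close together, and the groups were far apart in both origins. Ssr3 rose 1.60-fold in hepCLiP (adjusted p = 0.00422) and had a log2 fold change of 0.38 in bilCLiP (adjusted p = 0.0602; 0.0429 with the cultures paired; 0.51 and 0.027 without bilCLiP 3D replicate 1). Ssr1 had a log2 fold change of 0.49 in hepCLiP (adjusted p = 0.0778; 0.00868 paired; 0.68 and 0.0288 without hepCLiP 2D replicate 1; 0.62 and 0.0438 without hepCLiP 3D replicate 3). Ssr1 rose 1.58-fold in bilCLiP (adjusted p = 0.0285), a call lost without bilCLiP 2D replicate 2 (0.69, 0.0605) or 3 (0.56, 0.1) and 3D replicate 2 (0.57, 0.0991) or 3 (0.70, 0.0532). Ssr2 had a log2 fold change of 0.22 in hepCLiP (adjusted p = 0.118) and rose 1.45-fold in bilCLiP (adjusted p = 0.00278). In hepCLiP, DESeq2 called Ssr2 higher (0.27, adjusted p = 0.0156), and edgeR on library totals alone called it lower (−0.36, adjusted p = 0.015). Where the origins parted in these calls, the difference between origins itself did not pass for any of the 4.

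Of the 4 signal peptidase subunits, which cut the signal peptide from the entering chain, 3 rose in each origin. Sec11c, a catalytic subunit, was at 24.6, 21.8 and 16.5 CPM in hepCLiP 2D and 69.9, 55.6 and 51.6 in 3D (2.82-fold, adjusted p = 0.00528). In bilCLiP Sec11c was at 41.8, 28.2 and 18.1 CPM in 2D and 87.1, 89.6 and 46.6 in 3D (2.53-fold, adjusted p = 0.0101). The bilCLiP groups came within a few CPM of each other without overlapping. Spcs2 rose 1.87-fold and 1.79-fold, and Spcs3 1.75-fold and 1.52-fold. The bilCLiP call of Spcs3 (adjusted p = 0.0414) was lost without any of 7 libraries, with the lowest value, log2 0.41 (adjusted p = 0.174), without bilCLiP 3D replicate 2. Spcs1 was not called in hepCLiP (log2 0.54, adjusted p = 0.112) or bilCLiP (0.69, adjusted p = 0.0536). It passed in both with the cultures paired (0.53, adjusted p = 0.00627, and 0.69, adjusted p = 0.00247), and in bilCLiP without 3D replicate 2 (0.90, adjusted p = 0.0192).

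At the exit from the ER, the 2 cargo receptor genes rose and the coat genes mostly did not pass. Lman1 (ERGIC-53), the lectin receptor that carries glycoproteins such as coagulation factors to the Golgi, was at 145, 109 and 122 CPM in hepCLiP 2D and 429, 339 and 263 in 3D (2.74-fold, adjusted p = 0.00076). In bilCLiP Lman1 was at 109, 109 and 93.7 CPM in 2D and 208, 330.2 and 231 in 3D (2.47-fold, adjusted p = 0.00158). Mcfd2, its partner in the same receptor, rose 2.78-fold in hepCLiP (adjusted p = 0.000484) and 2.52-fold in bilCLiP (adjusted p = 0.000954). Both parts of the receptor were thus higher in all 3D libraries than in any 2D library.

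Among the COPII coat genes, Sec24d, a cargo-binding subunit, was at 56.9, 62.4 and 61.2 CPM in hepCLiP 2D and 129, 143 and 90.7 in 3D (2.01-fold, adjusted p = 0.0146), a call lost without hepCLiP 3D replicate 2 (log2 0.87, adjusted p = 0.0542). In bilCLiP it was at 45.5, 73.4 and 61.8 CPM in 2D and 65.7, 134 and 83.9 in 3D, with overlap (log2 0.65, interval 0.06 to 1.24, adjusted p = 0.0904). That value passed with the cultures paired (0.61, adjusted p = 0.0149) and without bilCLiP 3D replicate 1 (0.88, adjusted p = 0.0311). Sec23b had log2 fold changes of 0.17 (interval −0.15 to 0.48) and 0.32 (interval 0.00 to 0.63). Sec31a, of the outer coat, had 0.09 (interval −0.21 to 0.40) and −0.03 (interval −0.34 to 0.27), and a 2-fold change in either direction lies outside the intervals of both genes in both origins. On library totals alone Sec31a was lower in both, by −0.48 (adjusted p = 0.00557) and −0.51 (adjusted p = 0.00529), and Sec23b was lower in hepCLiP (−0.40, adjusted p = 0.0335).

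The 5 ATF4 targets went in different directions. Psat1 and Phgdh encode neighbouring enzymes of serine synthesis, and they moved oppositely in both origins. Psat1 was at 168, 165 and 217 CPM in hepCLiP 2D and 413, 665 and 383 in 3D (2.66-fold higher, adjusted p = 0.00366). In bilCLiP Psat1 was at 151, 229 and 113 CPM in 2D and 421, 501 and 372 in 3D (2.63-fold higher, adjusted p = 0.00455). Phgdh, the first enzyme of the same route, was at 379.5, 417 and 508 CPM in hepCLiP 2D and 136, 189 and 106 in 3D (3.03-fold lower, log2 −1.60 ± 0.245, adjusted p = 0.000794). In bilCLiP Phgdh was at 429, 619.5 and 372 CPM in 2D and 183, 209.6 and 188 in 3D (2.45-fold lower, log2 −1.29 ± 0.243, adjusted p = 0.00282). Neither gene's groups overlapped in either origin.

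Asns, asparagine synthetase, was at 64.6, 64.2 and 56.1 CPM in hepCLiP 2D and 117, 185 and 97.5 in 3D (2.16-fold, adjusted p = 0.0428). That call was lost without any of 6 libraries, the lowest value being log2 0.80 (adjusted p = 0.159) without hepCLiP 3D replicate 2. In bilCLiP Asns was at 65.7, 130.5 and 47.8 CPM in 2D and 84.6, 171 and 115 in 3D (log2 0.60, interval −0.23 to 1.43, adjusted p = 0.258). It passed there with the cultures paired (0.67, adjusted p = 0.0401) or without bilCLiP 2D replicate 2 (1.12, adjusted p = 0.0392).

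Chac1, a glutathione-degrading enzyme induced late in the ATF4 branch, was at 13.1, 6.46 and 10.2 CPM in hepCLiP 2D and 37.4, 59.6 and 20.7 in 3D (3.95-fold, log2 1.98 ± 0.663, adjusted p = 0.0392), a call lost without any of 6 libraries (1.55, adjusted p = 0.129, without hepCLiP 3D replicate 2). In bilCLiP Chac1 was at 12.7, 55.7 and 9.34 CPM in 2D and 14.6, 32.4 and 19.3 in 3D (log2 −0.23, interval −1.64 to 1.18, adjusted p = 0.82). Trib3, a pseudokinase that feeds back on ATF4, was at 12.3, 6.68 and 9.69 CPM in hepCLiP 2D and 24.3, 25.9 and 18.1 in 3D, with no overlap (log2 1.25, interval −0.40 to 2.9, adjusted p = 0.221). It passed in hepCLiP with the cultures paired (1.27, adjusted p = 0.0492) and without bilCLiP 2D replicate 2, a library of the other origin that enters the shared estimate of spread (1.25, adjusted p = 0.047). In bilCLiP Trib3 was at 5.99, 62.4 and 10.4 CPM in 2D and 5.27, 17.9 and 14.6 in 3D (log2 −1.06, interval −2.70 to 0.58, adjusted p = 0.312), and without bilCLiP 2D replicate 2 its sign turned (0.62, adjusted p = 0.386).

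Within this branch 1 bilCLiP 2D library stood apart. Replicate 2 was the highest of its group for all 5 ATF4 targets in bilCLiP 2D, bilCLiP 3D and hepCLiP 3D, and for none of them in hepCLiP 2D. In bilCLiP 2D it was also the highest for Atf4 (357 CPM against 217 and 246) and Ddit3 (60.8 against 18.4 and 25.97). Without it the bilCLiP log2 fold change was 0.21 for Atf4 and 1.00 for Chac1 (adjusted p = 0.169). In hepCLiP replicate 2 is also the RosaYFP library, whereas in bilCLiP all 3 replicates are RosaYFP.

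**Figure D5:**
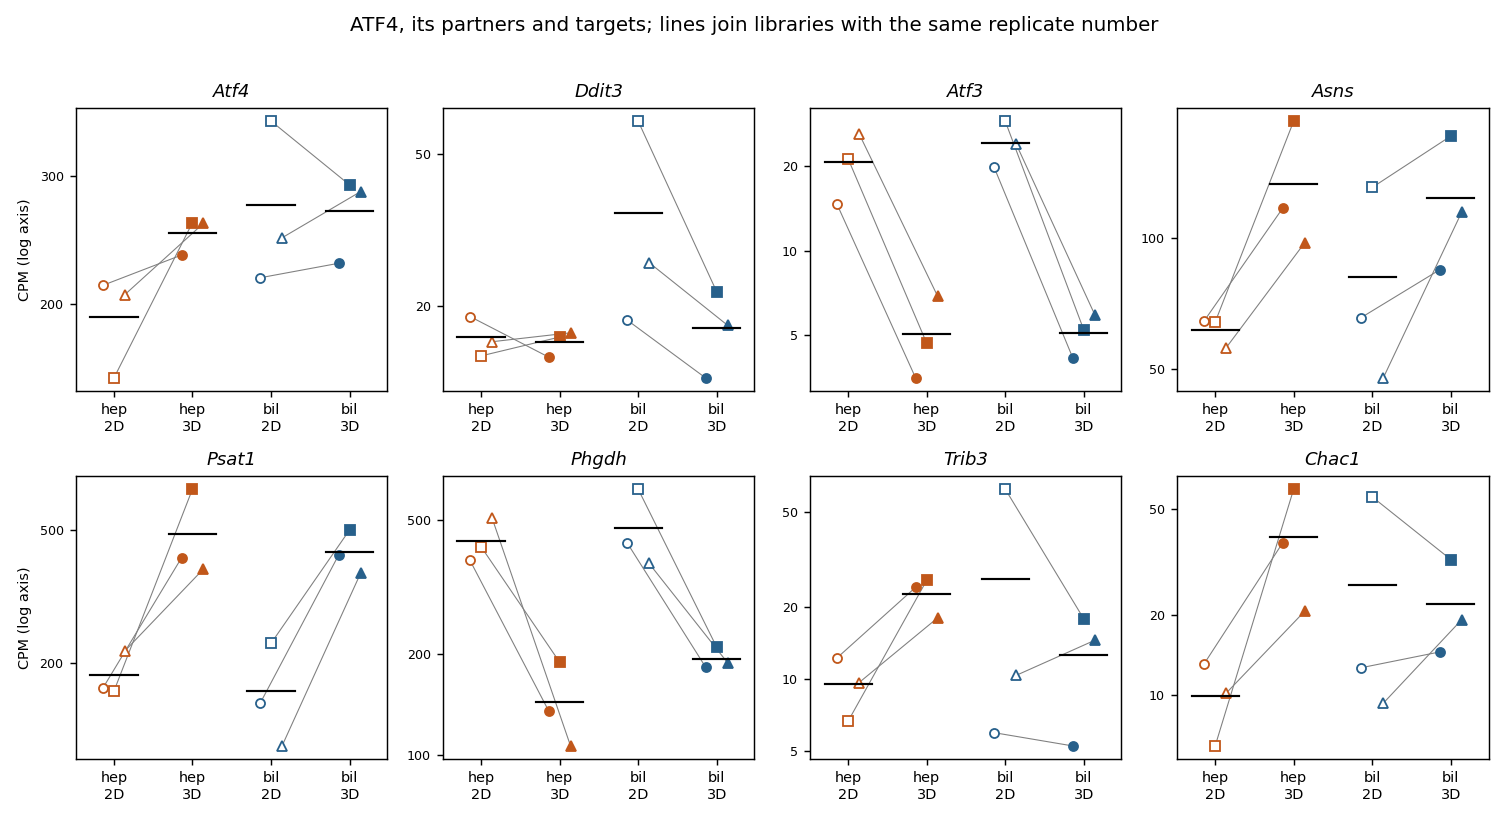
CPM (log axis) of Atf4, Ddit3, Atf3 and the 5 ATF4 targets in each library, with open symbols for 2D, filled for 3D, circles, squares and triangles for replicates 1, 2 and 3 and black lines for group means; thin lines join the 2D and the 3D library with the same replicate number. In bilCLiP 2D, replicate 2 lies above the other replicates for Trib3 (62.4 CPM) and Chac1 (55.7), while Atf3 and Phgdh go down and Psat1 goes up along every thin line.

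Levels also varied together within the 3D groups. In bilCLiP 3D, replicate 2 was the highest for 38 of the 46 genes and replicate 1 the lowest for 37. In hepCLiP 3D, replicate 3 was the lowest for 32. The same counts over all genes were not made, so this order is not shown to be particular to the members. CPM also divides every gene of a library by the same trimmed-mean factor. These factors were 0.941, 0.825 and 0.877 in bilCLiP 3D and 0.770, 0.764 and 0.840 in hepCLiP 3D. The summed CPM of the 46 genes was 14706, 20546 and 16497 in the 3 bilCLiP 3D libraries and 20241, 19735 and 16734 in those of hepCLiP 3D. As shares of raw counts they took 1.38%, 1.69% and 1.45% in bilCLiP 3D and 1.56%, 1.51% and 1.41% in hepCLiP 3D. The share of counts on plasma protein genes ran in the same order in each group, at 15.4%, 22.4% and 20.5% in bilCLiP 3D and 25.5%, 24.0% and 19.8% in hepCLiP 3D. In bilCLiP 3D the mucous marker Tff3 was also highest in replicate 2, at 940 CPM against 199 and 183. Whether these move the secretory genes was not tested.

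The cells of the 2 origins were compared with each other in the same culture. Reporter differed along with origin in part. All bilCLiP libraries carried RosaYFP, and replicates 1 and 3 of each hepCLiP group RosaConfetti. Differences between origins here and in the next comparison are thus not fully separated from reporter. No member was called between bilCLiP and hepCLiP in 2D by edgeR, where 0.135% of all genes were called, and 4 (8.7%, beside 14.5% of all genes) had an unadjusted p under 0.05: Atf4 (log2 0.51), Ddit3 (1.08), Dnajc3 (−0.47) and Sec31a (−0.37), positive values being higher in bilCLiP. DESeq2 also called none, and 3.78% of all genes. In 3D no member was called by edgeR either, with 0.101% of all genes called, and 4 (8.7%, beside 16.6% of all genes) had an unadjusted p under 0.05: Dnajc3 (−0.61), Edem1 (−0.56), Sec61g (0.84) and Sec31a (−0.49). In 3D DESeq2 called 2 members (4.35%, beside 4.41% of all genes), Sec61g (0.81, adjusted p = 0.0409) and Sec31a (−0.53, adjusted p = 0.0107), and edgeR called Sec61g without hepCLiP 3D replicate 3 (1.2, adjusted p = 0.0287). The members' shares thus lay below or near those of all genes. These comparisons use the same libraries as the culture comparisons above.

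The change from 2D to 3D was also compared between origins. No gene of the 14798 was called (0%), and among the members 2 (4.35%, beside 3.6% of all genes) had an unadjusted p under 0.05: Ssr2, whose log2 change was larger in bilCLiP by 0.32, and Chac1, with a difference of −2.21. DESeq2 called no member, and 0.108% of all genes. A gene called in 1 origin only is therefore not shown to differ between them, nor is it shown to behave alike.

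The rest of the pathway was read from longer lists of the same functions. Over all genes tested, 16.9% were called higher and 17.9% lower in hepCLiP, and 15.8% and 14.5% in bilCLiP. The counts here and in the paragraphs that follow are to be read beside these shares. Among 22 other ER folding factors, 13 rose and none fell in hepCLiP, and 12 rose and 1 fell in bilCLiP. Pdia5 went from 10.1 ± 3.50 to 59.2 ± 5.68 CPM in hepCLiP (log2 2.56) and from 8.63 ± 3.35 to 45.1 ± 17.5 in bilCLiP (log2 2.39). Fkbp11, a prolyl isomerase of secretory cells, had log2 rises of 1.85 and 1.72. Among 12 other genes of ER-associated degradation, 9 rose and none fell in hepCLiP, and 7 rose and none fell in bilCLiP. Edem2 had log2 rises of 1.24 and 1.61, and Sel1l, the scaffold of the main degradation complex, rose from 101 ± 6.10 to 247 ± 57.1 CPM in hepCLiP.

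Further lists covered targeting, glycosylation and export. Of 13 other genes for targeting and translocation, 6 rose in hepCLiP and 7 in bilCLiP, and none fell. Srpr, a subunit of the receptor for the signal recognition particle, went from 132 ± 25.4 to 431 ± 124 CPM in hepCLiP and from 123 ± 24.9 to 309 ± 46.6 in bilCLiP. Of 11 oligosaccharyltransferase genes, whose complex attaches sugar chains to entering proteins, 5 and 6 rose and none fell. Rpn1 had log2 rises of 1.18 and 1.05, and Ostc of 1.16 and 1.2. Of 25 other genes of COPII and ER export, 14 rose and 1 fell in hepCLiP, and 9 rose and 1 fell in bilCLiP. Sar1b, the GTPase that starts the coat and is needed for lipoprotein export, went from 72.2 ± 7.06 to 262 ± 61.5 CPM in hepCLiP and from 83.8 ± 14.6 to 277 ± 70.7 in bilCLiP. Of 10 genes of the COPI coat, which brings material back from the Golgi, 3 rose in each origin.

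The lists of signalling genes and cytosolic chaperones held calls in both directions. Among 12 other genes of the unfolded protein response, 3 rose and 1 fell in hepCLiP, and 1 rose and 3 fell in bilCLiP. Serp1, a stress-associated partner of the translocon, rose in both (log2 1.00 and 0.90; on library totals alone 0.43, adjusted p = 0.0735, and 0.41, adjusted p = 0.0947), and Mbtps2, the protease that releases ATF6 and CREB3L3 from the membrane, fell in both (−0.71 and −0.73). Eif2ak3, which encodes PERK, rose in hepCLiP by log2 0.48 (adjusted p = 0.0311), a call lost without any of 4 hepCLiP libraries (2D replicate 1 or 3, 3D replicate 1 or 2), with adjusted p up to 0.102; on library totals alone its value was −0.10. Wfs1, an ER membrane protein, fell in bilCLiP, from 194 ± 134 to 35.2 ± 6.06 CPM. Of 23 other genes of the amino acid response, 4 rose and 2 fell in hepCLiP, and 4 rose and 4 fell in bilCLiP. The rises lay near the shares over all genes (16.9% in hepCLiP and 15.8% in bilCLiP). The falls lay near that share in bilCLiP (14.5%) and below it in hepCLiP (17.9%). Nupr1, a stress-induced chromatin protein, rose from 2.85 ± 1.75 to 41.5 ± 3.64 CPM in hepCLiP and from 4.40 ± 3.67 to 33.34 ± 17.99 in bilCLiP (log2 3.86 and 2.92). In bilCLiP the third library of each culture decided the Nupr1 call: leaving out 2D replicate 3 gave 3.06 (adjusted p = 0.0513), and 2.45 (adjusted p = 0.0666) followed from leaving out 3D replicate 3. Fgf21, a secreted stress hormone of the liver, rose from 0.141 ± 0.166 to 12.3 ± 9.62 CPM in hepCLiP and from 0.223 ± 0.322 to 5.72 ± 4.95 in bilCLiP. The 2D libraries held 9 and 15 Fgf21 counts in all, and the bilCLiP call (adjusted p = 0.0349) was lost without any of 4 bilCLiP libraries (2D replicate 1 or 2, 3D replicate 2 or 3), with adjusted p up to 0.108. Slc7a1, a transporter of cationic amino acids, fell in both (−1.06 and −1.36). Among 10 genes of the cytosolic heat shock response, 1 rose and 5 fell in hepCLiP, and 3 rose and 2 fell in bilCLiP. Hspa1b, an inducible HSP70, rose from 15.4 ± 1.33 to 83.7 ± 26.1 CPM in hepCLiP and from 10.8 ± 4.17 to 52.0 ± 12.4 in bilCLiP (log2 2.44 and 2.27); its sequence is nearly identical to that of Hspa1a, so its counts are uncertain. Hspb1 fell from 160 ± 33.1 to 45.1 ± 12.4 CPM in hepCLiP and from 116 ± 3.76 to 39.5 ± 12.3 in bilCLiP, and Hsp90aa1, a cytosolic counterpart of Hsp90b1, fell by log2 1.26 and 1.04. The secreted clients rose almost without exception, 20 of 20 plasma protein genes in hepCLiP and 19 of 20 in bilCLiP.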

How the data were processed

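RNA from 12 cultures was sequenced in bulk. The deposited table holds raw read counts per gene, which the authors made with STAR 2.7.10b and featureCounts 2.0.1 on GRCm39, per the submitters' processing notes; for annotation, strand and counting options the sources used here give nothing, so reads of overlapping or near-identical genes may be shared. From these counts the quasi-likelihood F test of edgeR 4.0.16 (R 4.3.3) was run with trimmed-mean scaling, its filter on low counts and 4 group means over all 12 libraries; a gene was called at an adjusted p (Benjamini-Hochberg, 14798 genes) under 0.05. Standard errors were log2 fold changes divided by the square root of F, intervals are 95%, and CPM uses the scaled library size. The code was tested on simulated counts. The 46 genes and all lists were chosen with earlier results of these data known. All 46 may be named; of each other list, up to 3 called genes with the largest change in each direction per comparison may be named. In 2D and 3D of 1 origin, same-numbered libraries deviated together (correlations 0.497 to 0.508 in hepCLiP, 0.429 to 0.523 in bilCLiP, and negative for every other pairing), so the numbers pair cultures; the labels do not say what a number stands for. Promoter windows and their GRCm38.p6 coordinates are RefSeq's; that build differs from the counts' build, and no position was carried between them. Alternatives were RLE scaling, library totals alone, DESeq2 1.42.0, no low-count filter, only the groups compared, RosaYFP libraries only, a replicate block, and each library left out.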

Additional observations from a re-analysis of the deposited data

How the results depend on the processing

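With same-numbered cultures as a replicate block, 38 members were higher and 2 lower in hepCLiP, beside 22.4% and 24.7% of all genes. In bilCLiP 37 were higher and 3 lower, beside 21.7% and 21.5% of all genes. The calls this block changed stand beside the results, and Chac1 in bilCLiP turned to 0.13. On library totals alone the counts were 22 higher and 6 lower in hepCLiP, beside 8.73% and 44.8% of all genes. In bilCLiP they were 18 higher and 5 lower, beside 9.1% and 36.6% of all genes. Every log2 fold change was then shifted down by construction. Values that turned in hepCLiP were Atf4 −0.19, Sec61b −0.06, Ssr1 −0.09, Ssr2 −0.36, Spcs1 −0.03, Sec23b −0.40, Sec31a −0.48, Eif2ak3 −0.10, Ppp1r15b −0.06 and Alg12 −0.15. Those that turned in bilCLiP were Ssr3 −0.10 and Sec23b −0.17. The fit on RosaYFP libraries only leaves 1 hepCLiP library in each culture, assumed to vary like the others, so only effect sizes are given. There the members' median log2 fold change in hepCLiP was 1.22, beside −0.06 over all genes. For Ddit3 in hepCLiP the value turned to 0.01 under RLE scaling, 0.01 under DESeq2 and 0.16 in RosaYFP libraries; for Canx it turned to 0.03, 0.03 and 0.04, and was 0.00 with only the groups compared. Between origins in 3D, DESeq2 called 1 member higher and 1 lower.

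Leaving out each library in turn gave 32 to 35 members higher and 2 lower in hepCLiP, 26 to 35 higher and 2 to 3 lower in bilCLiP, 0 to 1 higher between origins in 3D, and 0 in the other comparisons of origins and in that of the culture changes. Values that changed sign in these fits ranged from −0.11 to 0.09 for Ddit3 and −0.16 to 0.11 for Canx in hepCLiP, and in bilCLiP from −0.17 to 0.21 for Atf4, −0.14 to 0.06 for Sec31a, −1.53 to 0.62 for Trib3 and −0.63 to 1.00 for Chac1; none of these was called in its origin. The cause of these changes was not tested. With 3 libraries a group, low counts limit Derl3 and Creb3l3 in 2D most.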

Other observations

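Outside the 46 genes, 29 others hold the ER stress response element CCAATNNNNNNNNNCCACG in their RefSeq promoter window, and 12 of them passed the filter on low counts. They were looked at after the members' matches had been seen. In each origin 5 of the 12 were called higher in 3D and 1 lower, where 16.9% (hepCLiP) and 15.8% (bilCLiP) of all genes tested were called higher and 17.9% and 14.5% lower. Syvn1, the ubiquitin ligase (HRD1) of ER-associated degradation, rose in hepCLiP from 77.6 ± 7.83 to 142 ± 28.7 CPM (log2 0.87, adjusted p = 0.00469 by edgeR) and by log2 0.85 in bilCLiP, and was called in neither on library totals alone (0.29 and 0.36). Acnat2, an acyltransferase of bile and fatty acid metabolism, had the widest rise of the 12, by log2 5.45 in hepCLiP and 5.70 in bilCLiP. Hnrnpa3, which encodes an RNA-binding protein of the nucleus, fell in both (−0.86 and −0.50); 3 single bilCLiP libraries each decided that second call. The value was −0.37 (adjusted p = 0.0949) on leaving out 2D replicate 2, −0.43 (adjusted p = 0.0838) for 3D replicate 1, and −0.51 (adjusted p = 0.0632) for 3D replicate 3. Alg12, a mannosyltransferase that builds the sugar chain for glycosylation, rose by 0.81 in bilCLiP; its call in hepCLiP (0.43, adjusted p = 0.0475) was lost in 9 of the 12 fits that left out a library, with adjusted p up to 0.134.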
